A study of Rattus norvegicus with 13 samples.

Results

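The genes described here encode heat shock proteins, J-domain proteins and a small set of their partners, measured in cultured rat cortical neurons and in axons harvested apart from their cell bodies. They were chosen by name: every probe set with a single gene symbol that begins with Hspa, Hspb, Hspd, Hspe, Hsph, Hsp90, Dnaja, Dnajb or Dnajc, together with Stip1, Bag1 to Bag6, Stub1, Ahsa1 and Hsf1. The rule gave 109 probe sets of 74 genes, of 20826 single-symbol probe sets of 14217 genes on the array. Of these genes, 39 encode J-domain proteins and 35 encode the other chaperones and partners. Hspbap1 came in by its name alone. Hspa8, Hspa1b and Hsp90aa1 had no probe set with a single symbol. Separately, 6 probe sets that name a member also name another gene and were left out.

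Heat shock proteins are molecular chaperones that bind unfolded proteins. Hsp70 proteins grip short stretches of a client in a cycle driven by ATP, J-domain proteins deliver the client and trigger ATP hydrolysis, and nucleotide exchange factors such as the Hsp110 and BAG proteins release it. Hsp90 acts later on clients handed over through the adaptor Stip1, the Hsp60 and Hsp10 ring folds proteins inside mitochondria, and small heat shock proteins hold clients without ATP. In neurons the same machinery uncoats clathrin vesicles, keeps synaptic vesicle proteins folded and serves axons far from the cell body, some of it translated from axonal mRNA.

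The study grew rat cortical neurons in a microfluidic platform whose grooves let axons into a separate compartment. All material was harvested after 13 days in culture, and the cells of 3 platforms were pooled for each Affymetrix GeneChip. There were 7 arrays of uninjured cortical axons, 3 arrays of axons that had been cut after 11 days and had regrown for 2 days (regenerating axons), and 3 arrays of the uninjured neuronal compartment (neurons). The labels name no genotype, strain or drug treatment, and the uninjured axon arrays came from 3 culture batches that the labels do not assign to arrays. RNA went through 2 rounds of amplification before hybridisation.

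The deposited value is a ratio for each probe set and array, with no level behind it, so values compare a gene with itself and never gene with gene. Uninjured arrays 1 to 3 and 4 to 6 had each been divided by the median of their own set, and array 7 held the value 1 for every probe set and therefore no measurement. What the regenerating and neuron arrays were divided by is not given in the sources used here; the uninjured level was taken as their reference, and every difference from uninjured axons rests on that. A log2 difference is the mean log2 ratio of 3 arrays against this reference, with its standard error (SE). Genes passed at an adjusted p under 0.05 by limma with Benjamini-Hochberg adjustment over all 14217 genes. The labels do not tie the arrays to independent cultures, and p-values therefore measure the spread between arrays, which may be technical.

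Several measures moved with the groups. Of the neuron markers 7 of 8 rose in the neuron arrays, with array medians of 5.01 to 10.3, and so did 8 of 8 astrocyte markers, with medians of 11.2 to 12.8. Microglial markers fell in neurons in 7 of 8 cases, to array medians of 0.456 to 0.617, and fibroblast and vascular markers fell in 4 of 8 and rose in 1. Oligodendrocyte markers rose in 3 of 7 and fell in 1. Of all genes tested 36.9% were higher and 23.0% lower in neurons, so the rise in 3 of 7 is near the share of all genes. No marker of any of these lists passed the test in regenerating axons, where the neuron markers had array medians of 0.561 to 0.854. Of the 8 neuron markers 7 had a log2 difference under 0 there and 1 above. Stmn2 and Map2 were lowest, at -3.86 ± 1.09 and -2.34 ± 0.49 (adjusted p = 0.139 and 0.0689 by limma). The hybridisation control probe sets, which report spiked RNA and no rat gene, had medians of 0.276, 0.910 and 0.157 in the 3 neuron arrays and of 1.14, 1.44 and 1.57 in the regenerating arrays. The 3′ probe set of GAPDH, a housekeeping gene, had ratios of 0.355, 0.159 and 0.142 in regenerating axons. In neurons it had 13.7, 7.19 and 16.6, against 64.1, 24.0 and 70.8 for its 5′ probe set, and the beta-actin 3′ probe set had 71.2, 38.4 and 80.1. In bulk material fewer cells and less RNA per cell cannot be told apart. The part of these measures in the results was not tested.

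Most chaperone mRNAs stood higher in neurons than in uninjured axons. Of the 74 genes, 43 rose (58.1%) and 8 fell (10.8%), against 36.9% higher and 23.0% lower of all genes tested. Their median log2 difference was 1.02, against 0.22 over all genes. With every array shifted to the same median, 40 rose and 13 fell, against 4621 and 4269 of all 14217 genes. The median was then 0.80, against 0.0013 over all genes. In 45 genes every neuron array lay above all uninjured arrays, a pattern found in 41.8% of all genes, and in 13 genes every neuron array lay below them, as in 30.3% of all genes. The Hsp90, Hsp110 and class A J-domain genes had family medians of 4.95, 2.65 and 3.02, and the small heat shock proteins had the only family median under 0.

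**Figure D1:**
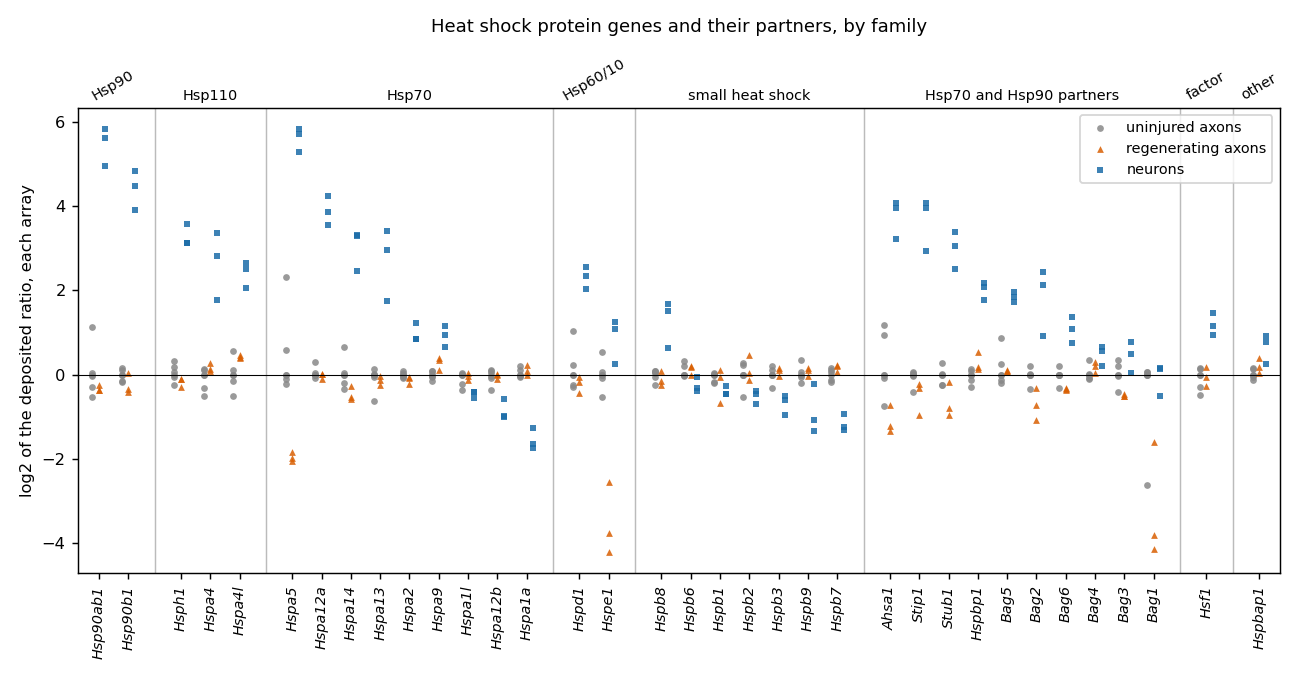
The log2 ratio of each of the 35 heat shock protein and partner genes is plotted for every array, grouped by family, with 6 measured uninjured arrays (grey circles), 3 regenerating arrays (orange triangles) and 3 neuron arrays (blue squares). Neuron arrays stand highest for Hsp90ab1 and Hspa5 and below 0 for Hspa1a and Hspb7, and regenerating arrays stand lowest for Hspe1 and Bag1.

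Among the Hsp90 chaperones, Hsp90ab1, the constitutive cytosolic form, had ratios of 49.3, 31.1 and 57.6 in the neuron arrays and of 0.690 to 2.19 (median 0.988) in the 6 measured uninjured arrays. The groups lay far apart, and neuron array 2 was the lowest of its group. The log2 difference was 5.48 ± 0.54 (SE, n = 3; adjusted p = 4.6e-05 by limma), or 44.5-fold. Hsp90b1, the Hsp90 of the endoplasmic reticulum, gave neuron ratios of 22.6, 15.1 and 28.8 against 0.883 to 1.11 in uninjured axons. It rose by 4.42 ± 0.31 on the log2 scale (adjusted p = 8.85e-06 by limma).

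In the Hsp70 family 6 of 9 genes rose and 2 fell, against 36.9% and 23.0% of all genes, with a median log2 difference of 0.97. Hspa5, also known as BiP and the central Hsp70 of the endoplasmic reticulum, had neuron ratios of 53.1, 39.5 and 57.1. Its uninjured arrays ran from 0.859 to 5.03 with a median of 1, and array 4 held the highest value, still far under every neuron array. The log2 difference was 5.62 ± 0.79 (adjusted p = 0.000349 by limma), or 49.3-fold. Hspa12a, an atypical Hsp70 of neurons, had neuron ratios of 14.6, 11.7 and 19.2 and rose by 3.89 ± 0.26 (adjusted p = 7.29e-06 by limma). Its relative Hspa12b, known from endothelium, fell, with neuron ratios of 0.492, 0.662 and 0.504 and a log2 difference of -0.87 ± 0.24 (adjusted p = 0.0123 by limma).

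Hspa1a, the Hsp70 gene induced by heat and other proteotoxic stress, was among the genes that fell. Its neuron ratios were 0.299, 0.413 and 0.320, and its uninjured ratios ran from 0.956 to 1.15 (median 1), with no overlap. It fell by 1.55 on the log2 scale (SE 0.21, adjusted p = 0.000306 by limma), a 2.94-fold difference. Regenerating axons had ratios of 1.05, 0.991 and 1.17, which overlapped the uninjured range. Hspa1b is a near-identical copy, so the probe set of Hspa1a may read both.

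The 3 Hsp110 genes, nucleotide exchange factors that also hold clients, all rose in neurons. Hsph1 gave neuron ratios of 8.70, 8.81 and 12.0 and a log2 difference of 3.28 ± 0.26 (adjusted p = 1.56e-05 by limma). Hspa4 and Hspa4l rose by 2.65 ± 0.50 and 2.41 ± 0.34. Of the mitochondrial ring, the Hsp60 gene Hspd1 rose by 2.31 ± 0.43 (adjusted p = 0.00168 by limma), with neuron ratios of 5.85, 4.13 and 5.04 against 0.818 to 2.04 in uninjured axons. Its lid, the Hsp10 gene Hspe1, had neuron ratios of 2.11, 1.18 and 2.38 that overlapped the uninjured range of 0.689 to 1.45, and its log2 difference of 0.86 ± 0.43 did not pass (adjusted p = 0.110 by limma), but passed without neuron array 2 (adjusted p = 0.0173).

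Of the 7 small heat shock protein genes, 1 rose and 2 fell, against 36.9% and 23.0% of all genes, and the median log2 difference was -0.52. With arrays shifted to the same median 5 fell, against 4269 of all 14217 genes. Hspb8, which works with Bag3 in selective autophagy, rose by 1.28 ± 0.35 (adjusted p = 0.0109 by limma), with neuron ratios of 2.87, 1.55 and 3.20. Hspb7, known from heart and muscle, fell by 1.17 (SE 0.21, adjusted p = 0.00152 by limma), with neuron ratios of 0.418, 0.525 and 0.402 against 0.878 to 1.11. Hspb3, a muscle form, fell by 0.69 (SE 0.23). Hspb1, the Hsp27 that binds the cytoskeleton, gave neuron ratios of 0.720, 0.727 and 0.826, all below the uninjured range of 0.872 to 1.02, and a log2 difference of -0.40 ± 0.18 that did not pass (adjusted p = 0.0778 by limma). These ratios under 1 stood beside the hybridisation control medians and microglial marker medians under 1 in the same arrays.

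The partner genes rose in 7 of 10 cases and fell in none, against 36.9% and 23.0% of all genes. Their median log2 difference was 1.84. Ahsa1, which activates the ATPase of Hsp90, had neuron ratios of 15.5, 9.33 and 17.1 and a log2 difference of 3.76 ± 0.66 (adjusted p = 0.00120 by limma). Stip1, the adaptor that joins Hsp70 to Hsp90, had 15.5, 7.61 and 17.1 and rose by 3.66 ± 0.39 (adjusted p = 7.06e-05 by limma). Stub1, the ubiquitin ligase CHIP that marks chaperone clients for degradation, rose by 2.98 ± 0.32 with ratios of 8.31, 5.71 and 10.4. In all these genes neuron array 2 was the lowest of the 3. Bag1 and Bag3, nucleotide exchange factors of Hsp70, had log2 differences of -0.08 ± 0.85 and 0.43 ± 0.32 that did not pass. Hsf1, the transcription factor of the heat shock response, had neuron ratios of 1.92, 2.23 and 2.77 and rose by 1.19 ± 0.29 (adjusted p = 0.00677 by limma).

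J-domain genes rose in 21 of 39 cases and fell in 4, against 36.9% and 23.0% of all genes. Their median log2 difference was 0.96. Class A genes, which have the full domain order of bacterial DnaJ, rose in 4 of 4, with a median of 3.02. Dnaja2 and Dnaja1, the main cytosolic members, had neuron ratios of 27.0, 20.2 and 23.0, and of 22, 15.6 and 24.6. Their log2 differences were 4.54 ± 0.48 and 4.35 ± 0.24. Dnaja3, the mitochondrial member, rose by 1.69 ± 0.25, and Dnaja4 by 0.71 ± 0.20.

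Class B genes rose in 5 of 12 cases, a share near the 36.9% of all genes. They fell in 1, against 23.0% of all genes, and had a median log2 difference of 0.85. Dnajb4 led them with neuron ratios of 14.2, 12.7 and 12.9 and a log2 difference of 3.73 ± 0.25 (adjusted p = 7.79e-06 by limma). Dnajb9, an endoplasmic reticulum protein that delivers clients to Hspa5, rose by 2.58 ± 0.40, with ratios of 4.99, 8.85 and 4.80; here neuron array 2 was the highest. Dnajb1, the main partner of inducible Hsp70, rose by 2.34 ± 0.21. Dnajb6, a suppressor of polyglutamine aggregation, had scattered neuron ratios of 3.83, 8.27 and 0.799, and its log2 difference of 1.55 ± 0.96 did not pass (adjusted p = 0.184 by limma), but passed without neuron array 3 (adjusted p = 0.00322). Dnajb14 fell by 0.49 (SE 0.19, adjusted p = 0.0484 by limma). That call was lost with 7 of the 9 arrays left out one at a time, and the adjusted p was then 0.0533 to 0.0940.

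Class C genes, which share little beyond the J-domain, rose in 12 of 23 cases and fell in 3, against 36.9% and 23.0% of all genes. Their median log2 difference was 0.94. The 3 genes of vesicles and endosomes all rose. Dnajc6, the neuronal auxilin that recruits Hsp70 to uncoat clathrin vesicles, had neuron ratios of 13.7, 16.3 and 13.7 against 0.596 to 1.15 and rose by 3.86 ± 0.32 (adjusted p = 1.76e-05 by limma). Dnajc5, the cysteine string protein of synaptic vesicles, rose by 2.00 ± 0.22 with ratios of 3.91, 3.59 and 4.6. At the other end Dnajc22 fell by 1.31 (SE 0.31, adjusted p = 0.00588 by limma), with neuron ratios of 0.396, 0.455 and 0.366 against 0.6 to 1.05. The falls of Dnajc1 and Dnajc17 were 0.55 (SE 0.17) and 0.50 (SE 0.19). With the probe set of highest mean log2 ratio over all arrays, a choice that favours high ratios, Dnajc1 turned to 0.34, which did not pass. The call of Dnajc17 was lost with any of the 6 uninjured arrays or neuron array 1 or 2 left out (adjusted p 0.0548 to 0.0687), and that of Dnajc1 with neuron array 1 left out, where its adjusted p stood at the threshold.

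**Figure D2:**
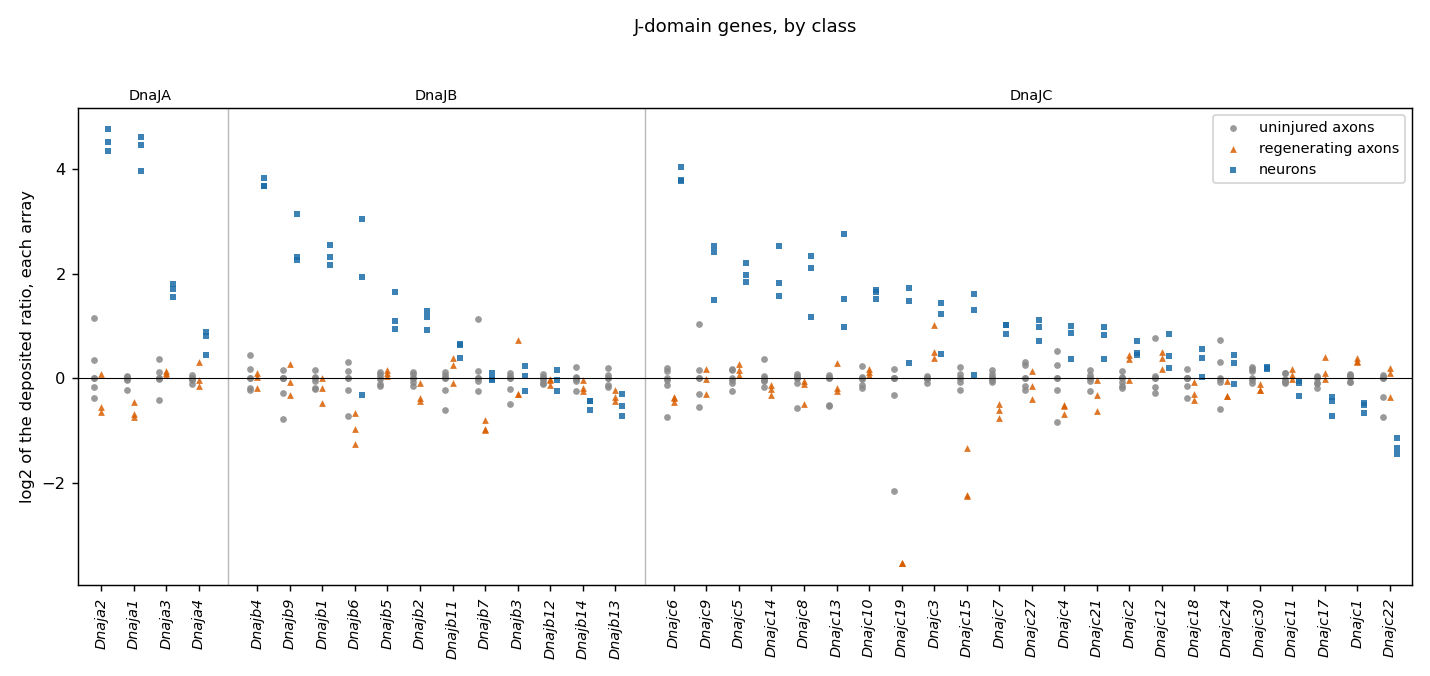
The log2 ratio of each of the 39 J-domain genes is plotted for every array, grouped by class A, B and C, with symbols for uninjured axons, regenerating axons and neurons. Neuron arrays stand highest for Dnaja2, Dnaja1, Dnajc6 and Dnajb4, and regenerating arrays stand lowest for Dnajc19 and Dnajc15.

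The shares of all genes, 36.9% higher and 23.0% lower, are the base for each compartment. Genes of the cytosol rose in 26 of 44 cases and fell in 4 (median log2 difference 0.97), and genes of the endoplasmic reticulum rose in 7 of 12 and fell in 2 (median 1.33). Mitochondrial genes rose in 3 of 8 cases, a share near that of all genes, with a median of 0.96. Those of the nucleus rose in 3 of 4, the fall being that of Dnajc17. Within the cytosolic Hsp70 genes the median was 0.25, or 0.03 with arrays shifted to the same median, while both Hsp70 genes of the endoplasmic reticulum rose.

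The start regions of the Hspa5, Hsp90b1 and Dnajc3 genes are printed because these endoplasmic reticulum chaperone genes hold the same promoter motif. The windows run from 250 bases before to 50 bases after the annotated start, from RefSeq on build GRCr8, and capitals mark the endoplasmic reticulum stress element as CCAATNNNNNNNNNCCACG on either strand, the motif read by ATF6 in the unfolded protein response. It was found in 3 of the 62 windows of 61 chaperone genes, and in 22 of all 33469 windows (0.0657%); 13 chaperone genes had no window. Hspa5 lies at chr3:38452766-38453065 on the + strand, Hsp90b1 at chr7:23012244-23012543 on the - strand and Dnajc3 at chr15:102432417-102432716 on the + strand.
Hspa5: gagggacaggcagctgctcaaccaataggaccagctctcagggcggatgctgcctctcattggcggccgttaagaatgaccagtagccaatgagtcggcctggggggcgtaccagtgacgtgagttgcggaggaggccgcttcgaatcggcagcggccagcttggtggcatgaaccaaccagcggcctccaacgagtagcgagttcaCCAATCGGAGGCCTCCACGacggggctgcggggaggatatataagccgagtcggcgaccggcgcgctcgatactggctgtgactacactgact
Hsp90b1: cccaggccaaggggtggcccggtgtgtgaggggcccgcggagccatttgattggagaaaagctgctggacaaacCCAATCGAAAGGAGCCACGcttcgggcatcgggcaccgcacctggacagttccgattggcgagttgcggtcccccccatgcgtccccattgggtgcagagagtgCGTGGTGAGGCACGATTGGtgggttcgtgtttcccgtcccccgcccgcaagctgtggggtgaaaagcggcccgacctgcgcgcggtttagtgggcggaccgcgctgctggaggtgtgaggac
Dnajc3: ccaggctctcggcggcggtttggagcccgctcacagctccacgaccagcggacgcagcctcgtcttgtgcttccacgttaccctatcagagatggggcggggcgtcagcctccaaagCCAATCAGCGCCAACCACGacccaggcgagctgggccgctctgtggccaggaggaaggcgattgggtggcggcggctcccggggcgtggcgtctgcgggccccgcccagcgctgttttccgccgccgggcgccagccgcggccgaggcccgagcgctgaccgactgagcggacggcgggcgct
Counting the annotated start as 0, the element lies at -43 to -25 in Hspa5, at -176 to -158 and -72 to -54 in Hsp90b1, and at -133 to -115 in Dnajc3. In neurons the log2 differences of Hspa5, Hsp90b1 and Dnajc3 were 5.62, 4.42 and 1.04, and all 3 genes rose. In regenerating axons they were -1.97 ± 0.77, -0.24 ± 0.22 and 0.64 ± 0.23, and none passed. Dnajc3, an inhibitor of the stress kinase PERK and a partner of Hspa5, had regenerating ratios of 2.04, 1.30 and 1.42, all above the uninjured range of 0.947 to 1.04 (adjusted p = 0.250 by limma).

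In regenerating axons most chaperone mRNAs stayed near the uninjured level, and the 2 that fell encode mitochondrial proteins. Hspe1 and Dnajc15 fell and no gene rose: 2 of 74 lower (2.70%), against 0.689% lower and 0.0352% higher of all genes tested by limma. The count rests on the error given to the reference: with none, 17 genes were lower and 3 higher (Dnajc1, Dnajc3 and Hspa9), and with that of 3 arrays 7 were lower and 1 higher. A smaller reference error gives every gene a smaller standard error. The shares of all genes at these settings are not given here, so these counts are no result about the chaperone genes. At an unadjusted p under 0.05, 9 genes were lower and 2 higher, or 12.2% and 2.70%, against 8.77% and 3.67% of all genes. The median log2 difference was -0.11, against 0.02 over all genes. In 10 genes every regenerating array lay below all uninjured arrays (13.5%, against 12.5% of all genes), and in 4 above (5.41%, against 10.3%).

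**Figure D3:**
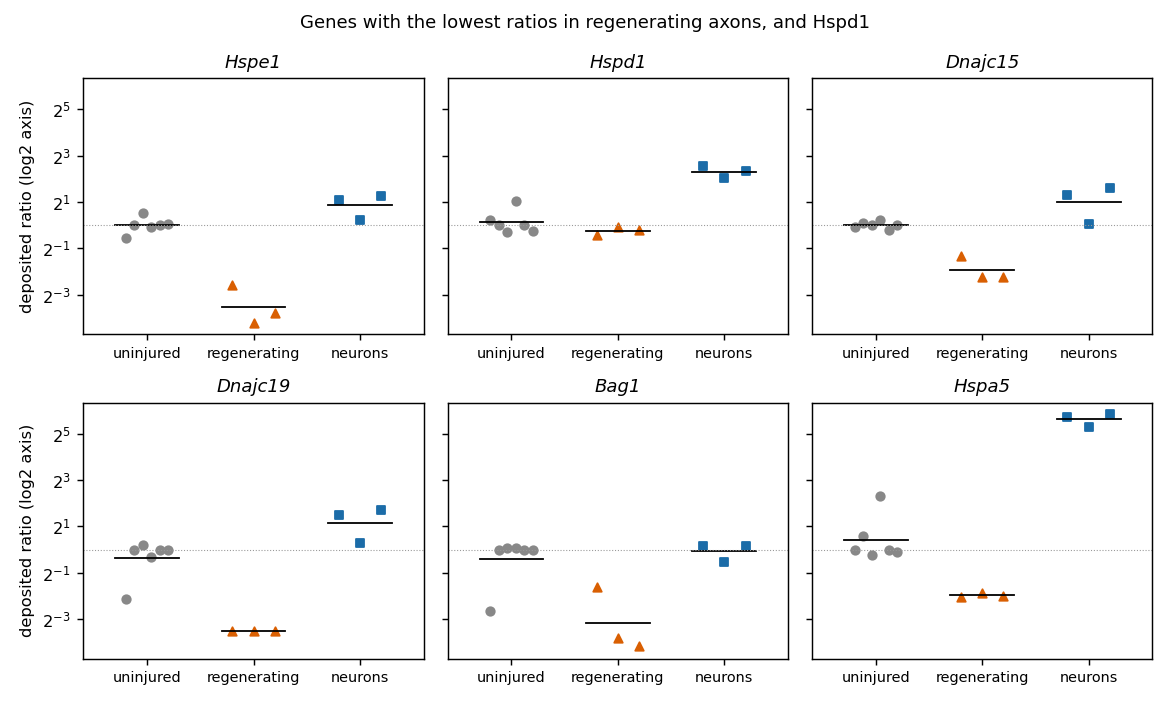
Deposited ratios on a log2 axis are plotted for each array of the 5 genes with the lowest regenerating mean and for Hspd1; bars mark the mean log2 ratio of a group (6 measured uninjured, 3 regenerating and 3 neuron arrays), and the dotted line marks a ratio of 1. Regenerating arrays of Hspe1 lie between 0.0539 and 0.169 while those of its partner Hspd1 lie between 0.738 and 0.955, and single uninjured arrays stand apart for Dnajc19, Bag1 and Hspa5.

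Hspe1, the Hsp10 lid of the mitochondrial folding ring, had regenerating ratios of 0.169, 0.0539 and 0.0729 against 0.689 to 1.45 (median 1) in uninjured axons. The groups did not overlap, and array 1 was the highest of the regenerating arrays. The log2 difference was -3.52 ± 0.55 (SE, n = 3; adjusted p = 0.0342 by limma), an 11.5-fold fall. Hspd1, whose product forms the ring that the lid closes, had ratios of 0.738, 0.955 and 0.879, within the uninjured range of 0.818 to 2.04 but for the lowest. Its log2 difference was -0.23 ± 0.42 (adjusted p = 0.902 by limma). The difference between the 2 genes was not tested.

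The start regions of Hspd1 and Hspe1 are printed because the 2 genes lie head to head and share a stretch of start region, while only Hspe1 passed the test in regenerating axons. The windows are again from RefSeq on build GRCr8, Hspd1 at chr9:64083988-64084287 on the - strand and Hspe1 at chr9:64084077-64084376 on the + strand, and they overlap by 211 bases. Capitals mark the heat shock element, the HSF1 motif searched as GAANNTTCNNGAA on both strands, with overlapping matches joined.
Hspd1: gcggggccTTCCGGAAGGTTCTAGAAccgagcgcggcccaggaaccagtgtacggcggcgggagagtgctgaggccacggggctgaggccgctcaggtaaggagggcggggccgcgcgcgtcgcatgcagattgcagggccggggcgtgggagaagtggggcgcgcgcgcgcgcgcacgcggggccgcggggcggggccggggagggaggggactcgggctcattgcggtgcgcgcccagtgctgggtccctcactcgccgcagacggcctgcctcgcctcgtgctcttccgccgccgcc
Hspe1: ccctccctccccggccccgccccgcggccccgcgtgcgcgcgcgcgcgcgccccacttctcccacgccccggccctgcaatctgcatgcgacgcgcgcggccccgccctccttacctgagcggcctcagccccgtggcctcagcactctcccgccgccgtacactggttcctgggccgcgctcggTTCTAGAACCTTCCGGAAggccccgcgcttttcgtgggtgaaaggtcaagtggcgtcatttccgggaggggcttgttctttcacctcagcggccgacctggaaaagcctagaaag
The capitals are the same 18 bases of the genome read from opposite strands, at chr9:64084262-64084279, which is -242 to -225 from the Hspd1 start and -65 to -48 from the Hspe1 start. The element was found in 4 of the 62 chaperone windows, those of Hspd1, Hspe1, Hsph1 and Dnaja1, and in 267 of all 33469 windows (0.798%). Of these 4 genes Hspe1 fell in regenerating axons. Hsph1 had a log2 difference of -0.17 ± 0.22, the mean of 2 probe sets of opposite sign at 0.167 and -0.505. Dnaja1 had regenerating ratios of 0.735, 0.598 and 0.623, all below the uninjured range of 0.860 to 1.03, and a log2 difference of -0.62 ± 0.17 that did not pass (adjusted p = 0.129 by limma).

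Dnajc15, a J-domain protein of the mitochondrial inner membrane tied to the import motor, had regenerating ratios of 0.396, 0.212 and 0.212 against 0.860 to 1.16 in uninjured axons, with no overlap. It fell by 1.94 on the log2 scale (SE 0.33, adjusted p = 0.0359 by limma). Dnajc19, its paralogue at the import motor, had nearly equal regenerating ratios of 0.0871, 0.0862 and 0.0871, and uninjured ratios of 0.226 to 1.13 (median 1). The groups did not overlap, but uninjured array 1, at 0.226, stood apart from the other uninjured arrays at 0.806 or more. Whether the equal regenerating ratios mark a lower limit of the signal was not tested; if they do, the differences of Dnajc19 are bounds. The log2 difference of -3.53 ± 0.70 did not pass (adjusted p = 0.0573 by limma). It passed without uninjured array 1 (adjusted p = 0.000214) and without uninjured array 3 (adjusted p = 0.0413).

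The 2 calls also turned on single arrays. Hspe1 no longer passed without regenerating array 2 or 3 or uninjured array 2 or 6 (adjusted p 0.0629 to 0.0900). Dnajc15 no longer passed without any of those 4 or uninjured array 5 (adjusted p 0.0520 to 0.112). The log2 differences in these fits were -3.17 to -3.52 for Hspe1 and -1.78 to -1.94 for Dnajc15. The other mitochondrial genes gave regenerating log2 differences of 0.10 for Dnaja3, 0.28 for Hspa9, 0.08 for Dnajc11 and -0.18 for Dnajc30, so a low ratio was not shared by all 8, whose median was -0.21. In regenerating arrays 1 to 3 the GAPDH 3′ probe set was at 0.355, 0.159 and 0.142, and Stmn2 at 0.215, 0.0365 and 0.0414. The neuron marker Syt1 was at 1.19, 1.42 and 0.943. Uninjured array 1, low for Dnajc19, had 0.620 for the GAPDH 3′ probe set and 0.304 for Stmn2. The part of these measures in the falls was not tested.

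Bag1, a nucleotide exchange factor that links Hsp70 to the proteasome, had regenerating ratios of 0.329, 0.0714 and 0.0561. The uninjured arrays ran from 0.162 to 1.05, because array 1 was at 0.162 while the others were at 0.993 or more, and the groups overlapped. Its log2 difference was -3.19 ± 1.10 (adjusted p = 0.235 by limma; 0.0661 to 0.422 with 1 array left out). Hspa5 had regenerating ratios of 0.239, 0.276 and 0.251, all below the uninjured minimum of 0.859. With uninjured array 4 at 5.03, its log2 difference of -1.97 ± 0.77 did not pass (adjusted p = 0.309 by limma), and it passed without that array (adjusted p = 0.0287). Dnajb7, a testis-enriched class B gene, had regenerating ratios of 0.506, 0.509 and 0.578, and with 1 array left out its difference passed only without uninjured array 4 (adjusted p = 0.412 by limma with it, 0.0466 without it).

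Besides Hspe1 and Dnajc15 no member passed in the fit of gene means over all measured arrays, with the reference counted as 1 array. The Hsp90 genes had log2 differences of -0.33 ± 0.48 for Hsp90ab1 and -0.24 ± 0.22 for Hsp90b1, and the 7 small heat shock protein genes had a median of 0.08. Partners had a median of -0.50, with Ahsa1 at -1.09 ± 0.63, Stub1 at -0.65 ± 0.30, Stip1 at -0.51 ± 0.28 and Bag3 at -0.49 ± 0.25, and none of these 4 passed. Hspa1a at 0.10 ± 0.17 and Hsf1 at -0.04 ± 0.28 did not pass either. Dnajb1, induced by heat shock like Hspa1a and Hsph1, was at -0.21 ± 0.21.

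**Figure D4:**
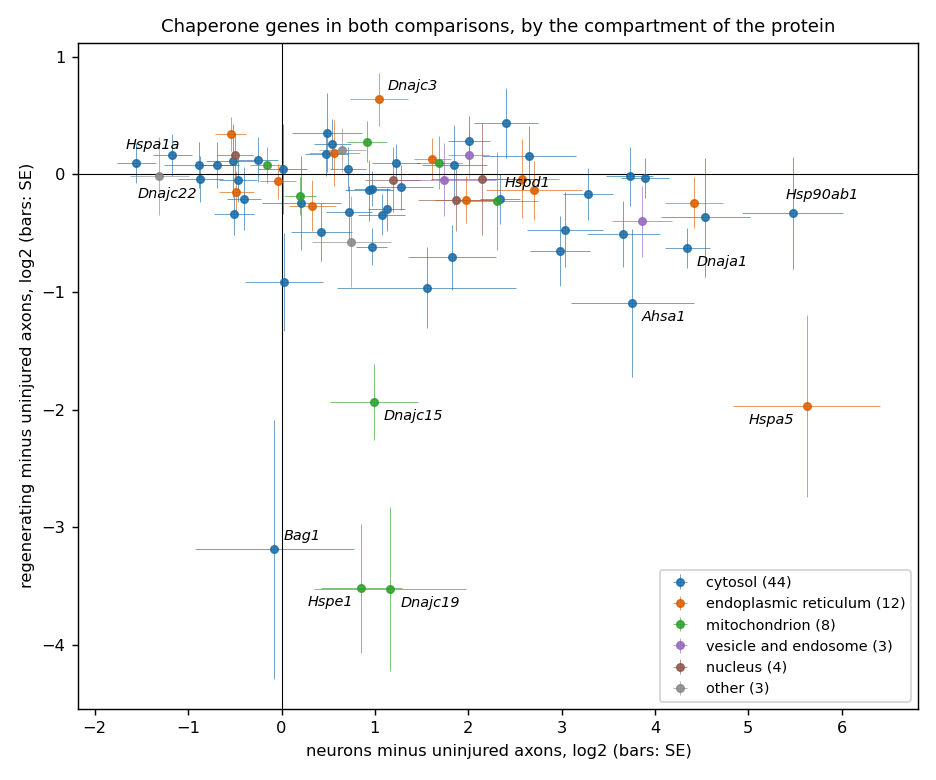
Each point is 1 of the 74 genes, with its log2 difference of neurons minus uninjured axons across and of regenerating minus uninjured axons upwards, bars giving 1 SE and colours the compartment of the protein. Both differences share the uninjured reference, so the joint position of a point is no result; most genes lie within 1 of the horizontal zero line, with Hspe1, Dnajc19, Bag1, Hspa5 and Dnajc15 farthest below it.

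Regenerating axons were also set against neurons, each as deposited; the comparison holds only if both were divided by the same reference. Of the 74 genes, 50 were lower in regenerating axons and 10 higher (67.6% and 13.5%), against 44.2% and 31.3% of all genes. The median log2 difference was -1.40, against -0.23 over all genes. With arrays shifted to the same median, 48 were lower and 14 higher, against 5611 and 5276 of all 14217 genes. Hspa5 was at -7.60 ± 0.17 (adjusted p = 2.47e-07 by limma), a 193-fold difference between ratios of 0.239 to 0.276 and of 39.5 to 57.1. Hsp90ab1 was at -5.80 ± 0.23, with Dnaja1 at -4.97 ± 0.20, Dnaja2 at -4.90 ± 0.22 and Ahsa1 at -4.85 ± 0.27.

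Mitochondrial genes were lower in regenerating axons than in neurons in 7 of 8 cases, against 44.2% of all genes. Among them were Dnajc19 at -4.69 ± 0.34, Hspe1 at -4.37 ± 0.44 and Hspd1 at -2.54 ± 0.18. With arrays shifted to the same median 6 were lower, against 5611 of all 14217 genes. Bag1 passed here at -3.11 ± 0.61 (adjusted p = 0.00224 by limma), where the uninjured arrays do not enter. The 10 genes higher in regenerating axons were Hspa1a, Hspb7, Dnajc22, Hspb9, Dnajc1, Hspa12b, Hspb3, Dnajc17, Hspb2 and Hspa1l, of which 4 are small heat shock proteins. Their log2 differences ran from 0.42 for Hspa1l, a testis form of Hsp70, to 1.65 for Hspa1a, a 3.14-fold difference. With the probe set of highest mean Dnajc1 turned to -0.044 and did not pass. Microglial markers were higher in regenerating axons in 8 of 8 cases, against 31.3% of all genes, with a median log2 difference of 1.28. The hybridisation controls had higher medians there too. Hspa1l no longer passed without neuron array 3 or regenerating array 2 (adjusted p 0.0543 and 0.0620), nor Hspb2 without neuron array 1 (0.0635).

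Probe sets of the same gene did not always tell the same story. Of the 74 genes, 26 had more than 1 probe set, and their values above are means. Hspa9, the mitochondrial Hsp70 mortalin, had 4 probe sets, with neuron ratios of 11.3, 6.74 and 15.9 for 1388851_at, 3.81, 2.55 and 5.68 for 1370690_at, 0.564, 0.706 and 0.390 for 1389930_at, and 0.559, 0.506 and 0.712 for 1391915_at. Tested probe set by probe set, the first pair rose (adjusted p = 0.000101 and 0.00140 by limma), 1389930_at fell (adjusted p = 0.0297) and 1391915_at did not pass (adjusted p = 0.119). Hspa9 was the only member with probe sets called in opposite directions in neurons.

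Dnajc7, a J-domain protein that moves clients between Hsp70 and Hsp90, had 3 probe sets. Its 1371784_at showed neuron ratios of 19.2, 9.04 and 17.6 and regenerating ratios of 0.319, 0.265 and 0.187, and it both rose in neurons and fell in regenerating axons (log2 difference -1.99, adjusted p = 0.0449 by limma over probe sets). The other 2 had neuron ratios of 0.648 to 0.942 and regenerating ratios of 0.847 to 1.33, and did not pass. The gene mean of -0.61 ± 0.16 in regenerating axons did not pass (adjusted p = 0.116 by limma). Dnajc5 spanned 0.06 to 3.93 on the log2 scale in neurons, and in 10 genes the sign differed between probe sets there: Dnajc7, Hspa9, Dnajc2, Dnajb2, Bag6, Dnajc24, Dnajc1, Dnajc30, Dnajc11 and Dnajb12.

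**Figure D5:**
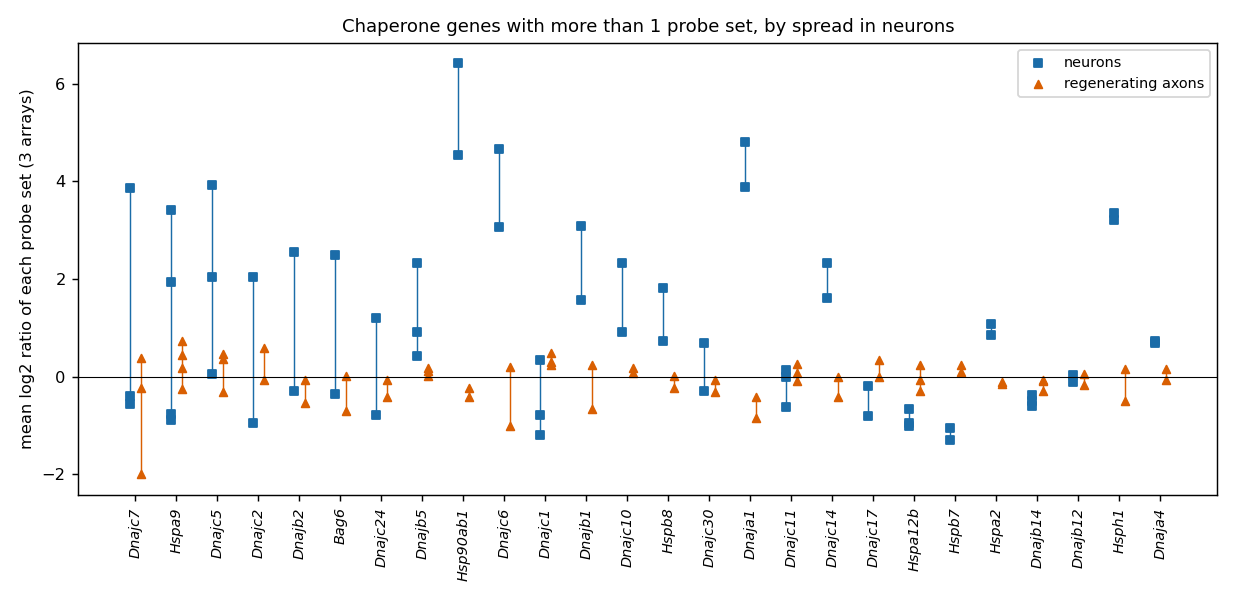
Mean log2 ratios over 3 arrays are plotted for each probe set of the 26 chaperone genes with more than 1, for neurons (blue squares) and regenerating axons (orange triangles), ordered by their spread in neurons; lines join the probe sets of a gene. Dnajc7, Hspa9 and Dnajc5 span about 4 units in neurons, while Hsph1 and Dnaja4 have neuron values close together.

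The wider chaperone system was read from 4 further lists with 58 measured genes. In neurons 44 rose and 3 fell, against 36.9% and 23.0% of all genes. With arrays shifted to the same median 37 rose and 5 fell, against 4621 and 4269 of all 14217 genes. In regenerating axons 2 fell and none rose by limma, against 0.689% and 0.0352%. Between regenerating axons and neurons 43 were lower and 7 higher, against 44.2% and 31.3%. Of 16 further Hsp90 co-chaperones 13 rose in neurons, and the 2 falls in regenerating axons were among them. Sugt1, a co-chaperone in kinetochore and immune receptor assembly, had neuron ratios of 3.31, 1.97 and 4.23. Its regenerating ratios were 0.114, 0.274 and 0.144 against 0.753 to 1.58 in uninjured axons, a fall of 2.6 (SE 0.47, adjusted p = 0.0445 by limma). Nudc, a partner of Hsp90 and dynein, had regenerating ratios of 0.421, 0.247 and 0.214 and fell by 1.83 (SE 0.34, adjusted p = 0.0475 by limma). None of these regenerating ratios overlapped the uninjured arrays.

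Of 12 further Hsp70 co-chaperones 8 rose in neurons and none fell. The shares of all genes, 36.9% higher and 23.0% lower, are the base for this and the next lists. Genes of endoplasmic reticulum folding and stress rose in 13 of 17 cases, among them the disulfide isomerase Pdia6 at 5.06 ± 0.49 and the stress transcription factor Atf4 at 4.62 ± 0.50, and Atf6 fell by 0.61 (SE 0.23, adjusted p = 0.0457 by limma). Of 13 other heat shock genes 10 rose and 2 fell. The ATPase Vcp rose by 4.08 ± 0.37 and the HSF1-binding Hsbp1 by 3.72 ± 0.79, while Hsf4 and the lens crystallin Cryaa fell by 1.24 (SE 0.23) and 1.0 (SE 0.17). Hsbp1 also had regenerating ratios of 0.244, 0.0751 and 0.0900, with uninjured array 1 at 0.248, and its log2 difference of -3.08 ± 0.86 did not pass (adjusted p = 0.135 by limma).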

How the data were processed

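GeneChip data of 13 arrays were read as deposited: 1 linear ratio for each of 31099 probe sets and array. The submitters' processing notes name RMA without a version; how the authors made the ratio from it is not given in the sources used here, nor is any scanner intensity. From the deposited values, the 3 arrays of uninjured sets 1 to 3 and 4 to 6 had a row median of 1 (within 1e-04) in every row, the regenerating arrays in 0.0933% and the neuron arrays in 0.0193%. Array 7 was 1 throughout and gave no measurement.

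Symbols came from the platform annotation; 436 probe sets with several symbols and 57 control probe sets were left out. Log2 ratios were averaged per gene and fitted with limma 3.58.1 in R 4.3.3 over all 14217 genes, with Benjamini-Hochberg adjustment and a threshold of 0.05. The 6 measured uninjured arrays entered about the mean of their own set, and the reference counted as 1 array in the standard error. Regenerating axons and neurons were compared in a fit of those 6 arrays alone. The fit was tested on simulated data. The number of arrays limits the precision.

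Members and lists were chosen with earlier results of these data known; a list's count and median stand beside those of all genes, with no p over the list. Named genes were a fixed set of chaperones, the 2 highest and 2 lowest of each family, all members past the threshold in regenerating axons or in the less common direction elsewhere, and genes whose probe sets differ in sign; of further lists, up to 2 each way. Hsbp1 in regenerating axons was picked after its values were seen. Alternatives were the choice of probe set, array centring, the lowest ratio (0.01), the error of the reference, the pooled spread, the prior, the replicate block and leaving out each array.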

Additional observations from a re-analysis of the deposited data

Results flagged for a closer look

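Among the 6 measured uninjured arrays, 12 of the 61 chaperone genes picked by the rule for named genes had 1 array standing apart from the rest by Dixon's gap test. Chance passes that test about 1 time in 20 for 6 independent values; these are 2 sets of 3, each divided by its own median, so that rate does not hold here and the number of genes cannot be set against it. Array 4 was that array in 4 genes: Hspa5 (ratio 5.03, the others 0.859 to 1.5), Hsp90ab1 (2.19), Dnajb7 (2.19) and Hspb2 (0.687). Array 1 was low in Dnajc19 (0.226) and Bag1 (0.162). Array 5 stood apart in Bag4 (1.27) and Dnajc6 (0.596), array 2 in Hspa12a (1.23) and Dnaja1 (0.860), array 3 in Stip1 (0.752) and array 6 in Dnajc12 (1.70).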

How the results depend on the processing

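Of the values of named genes under the alternatives, 808 of the neuron comparison and 828 of the regenerating comparison kept their side of the threshold. So did 599 of the comparison between both. In the same order, 32, 10 and 11 values lost the call and 26, 29 and 13 gained it. In neurons and between both, 1 value each turned sign and lost its call. Only 2 genes passed in regenerating axons, so most of the 828 belong to genes without a call, and they say little about the 2 calls. The values that kept their side include some whose sign turned while neither fit passed. Hsph1 was one such gene in regenerating axons, at -0.17 as the mean and 0.167 with the probe set of highest mean. With the probe set of highest mean in place of the mean, the sign of Dnajc1 turned: 0.34 in neurons (adjusted p = 0.271 by limma) and -0.044 between regenerating axons and neurons (adjusted p = 0.803). That probe set is the one with the highest mean log2 ratio over all arrays. Such a choice favours high ratios by construction, so changes under it are no independent check. The same setting moved the median log2 difference of chaperone genes from 1.02 to 1.38 in neurons, from -0.11 to -0.069 in regenerating axons and from -1.40 to -1.88 between both; shifting the arrays gave -1.19 there. With 1 array left out, these medians ran from 0.89 to 1.18, -0.16 to -0.085 and -1.49 to -1.25, and the calls from 46 to 53 in neurons and from 57 to 64 between both. The 2 calls in regenerating axons ran from 0 to 4: 0 without regenerating array 2 or 3 or uninjured array 2 or 6, 1 without uninjured array 5, and 4 without uninjured array 4. They were 20 (17 lower, 3 higher) with no error of the reference, 8 (7 lower, 1 higher) with the error of a mean of 3 arrays, and 1 with the spread pooled over the groups; a smaller reference error gives smaller standard errors by construction. No share of all genes stands beside these counts, so they are no result about the chaperone genes. Under these and the other settings Hspe1 passed in 13 of 17 and Dnajc15 in 11 of 17. Correlations of deviations between same-numbered arrays ran from -0.39 to 0.19. Deviations from means of 3 arrays cannot tell whether the array numbers pair the samples. With the replicate number as a block, the calls were 62 (51 higher, 11 lower) in neurons, 4 in regenerating axons and 61 between both. The counts of lower calls in neurons were 5 with the probe set of highest mean and 13 with shifted arrays, against 8. Over all genes the shift moved the lower calls in neurons from 3271 to 4269. The deposited ratios carry no signal over background, so low probe sets could not be marked.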
